A study of Mus musculus with 6 samples.

Results

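Transcript levels of 9 transcription factors of the anterior forebrain and optic field were examined in mouse embryos with and without the basic helix-loop-helix factor Olig2. The factors were Six3, Six6, Vax1, Vax2, Rax, Foxd1, Otx1, Hesx1 and Lhx2. Every probe set whose platform annotation gave exactly 1 gene symbol, and that symbol among these 9, was taken, which found 12 of the 45037 non-control probe sets on the array, with at least 1 for each gene. The arrays were Affymetrix MOE430 2.0, which measure labelled RNA with sets of short probes. The tissue was ventral forebrain at E13.5 (the letter stands for embryonic day), which the sample labels call ventral telencephalon, from Olig2-/- (knockout) and Olig2+/+ (wild-type) embryos. Each array carried the pooled RNA of 3 brains, and each genotype had 3 arrays: the wild type replicates 1, 4 and 5, and the knockout replicates 2, 4 and 5. The sources used here do not give how the Olig2 allele was made, the genetic background or the sex of the embryos.

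The eye field is a single domain of the anterior neural plate that later splits into a pair of optic vesicles. Rax, Six3, Six6 and Lhx2 are homeodomain factors needed in and around this domain. Six3 also keeps posteriorizing Wnt signals out of the anterior forebrain, and in the later ventral forebrain it is made in the ganglionic eminences, the hypothalamus and the prethalamus. Vax1 and Vax2 act in the ventral optic vesicle and the basal forebrain, Foxd1 is a forkhead factor of the temporal retina and ventral diencephalon, Otx1 is an orthodenticle factor of the forebrain and midbrain, and Hesx1 is an early repressor of the anterior neural plate and the pituitary primordium.

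Upstream sequences are shown for Six3, whose array groups did not overlap, and for Six6, its nearest relative in the set, whose groups did. Each run is the 250 bases before the annotated transcription start, 5′ to 3′, from RefSeq (build GRCm38.p6, plus strand), and capitals mark the letters CCAAT on either strand. The Six3 window is chr17:85620584-85620833 and the Six6 window is chr12:72939632-72939881.
Six3: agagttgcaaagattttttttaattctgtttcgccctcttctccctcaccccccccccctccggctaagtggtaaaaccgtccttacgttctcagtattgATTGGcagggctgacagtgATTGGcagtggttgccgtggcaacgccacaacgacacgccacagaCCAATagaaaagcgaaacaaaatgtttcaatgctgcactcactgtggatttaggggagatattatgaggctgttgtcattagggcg
Six6: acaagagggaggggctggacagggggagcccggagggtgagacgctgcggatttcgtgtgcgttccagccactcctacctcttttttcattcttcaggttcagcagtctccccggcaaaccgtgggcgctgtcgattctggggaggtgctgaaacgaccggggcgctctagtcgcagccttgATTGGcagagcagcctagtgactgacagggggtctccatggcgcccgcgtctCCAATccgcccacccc

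The Six3 window held CCAAT, a common promoter element singled out after these windows were read, 3 times and the Six6 window 2 times, counted on both strands. Over all 32851 RefSeq windows of this length, 33.8% held it at least 1 time, 10.1% at least 2 times and 2.79% at least 3 times. The longest run of letters common to the Six3 and Six6 windows on the plus strand was ttgattggcag, 11 bases that include a reversed CCAAT, and 11 of the 32851 windows (0.0335%) held it on either strand. That share is of this one run, and how long a run other pairs of windows have in common was not counted. Basic helix-loop-helix factors such as Olig2 bind short sites called E-boxes, written CANNTG, which were also searched on both strands. Neither the Six3 nor the Six6 window held an E-box, nor did the 2 Lhx2 windows, whereas 66.2% of all windows held at least 1. The Vax1 and Foxd1 windows held 1 each. The Hesx1 window held 2 E-boxes, and 31.8% of all windows hold at least 2. Both were of the form CATATG, which 0.14% of all windows hold 2 times or more. That smaller share is of this one form of the E-box. RefSeq windows of Vax2, Rax and Otx1 were not used here. These are matches of letters in a short window before the start, and distant regulatory sequence was not searched.

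Values are log2 expression levels, so a difference of 1 is a 2-fold change. A probe set was counted as measurable when it lay above the median of its own array on at least 3 of the 6 arrays, without regard to genotype. Of the 12 probe sets 7 passed this filter, for 6 of the 9 genes: Six3, Six6, Vax1, Foxd1, Otx1 and Lhx2. Vax2, Rax and Hesx1 did not pass, and each was represented by a single probe set. Levels of different probe sets are not compared with each other below, because probes differ in how brightly they bind.

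**Figure D1:**
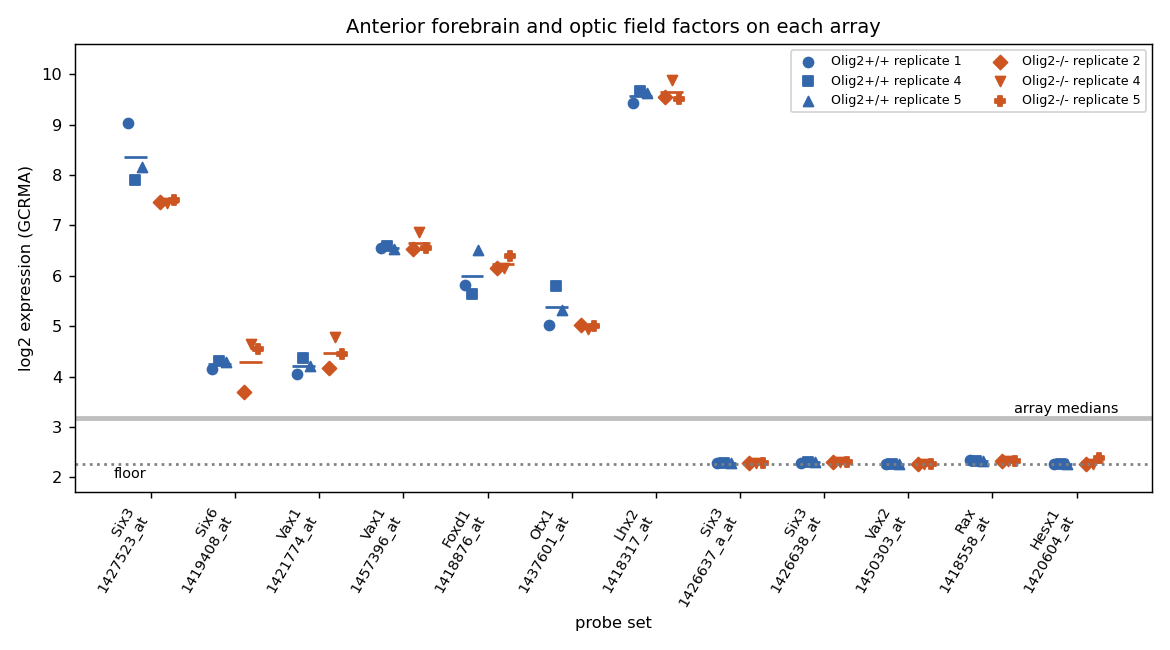
Log2 expression (GCRMA, vertical axis) of each of the 12 probe sets on the 3 Olig2+/+ arrays (blue) and the 3 Olig2-/- arrays (orange), with short lines at the group means, a grey band at the array medians and a dotted line at the floor. Six3 (1427523_at) has all 3 knockout points below all wild-type points, the other 6 measurable probe sets overlap, and the 5 probe sets at the right lie at or near the floor.

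The arrays were alike in overall distribution, with medians between 3.14 and 3.19 and pairwise correlations over all probe sets between 0.990 and 0.998. Olig2, the targeted gene, read 8.28 ± 0.12 on wild-type arrays and 7.59 ± 0.15 on knockout arrays (SD, n = 3 each), without overlap. Its difference of -0.69 had a limma unadjusted p of 0.000767 and did not pass (adjusted p = 0.511). The sources used here do not say whether the Olig2 probe set lies inside the deleted stretch. Olig1, planned as a further label check, was 1.69 higher in the knockout (limma adjusted p = 0.511), also without overlap. Over the 22565 probe sets that passed the filter, none passed an adjusted p of 0.05 in limma (0%, the lowest was 0.511), while 2121 (9.40%) had an unadjusted p below 0.05. Among the 10630 genes these probe sets represent, groups did not overlap for 1744 (16.4%), with 846 (7.96%) lower and 898 (8.45%) higher in the knockout. P-values measure the spread between these 6 pooled samples, and so small a number limits their precision.

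Six3 was the 1 gene of the 6 measurable ones whose groups did not overlap, a share close to the 16.4% found over all genes. Its measurable probe set (1427523_at) read 9.02, 7.90 and 8.16 on wild-type replicates 1, 4 and 5. It read 7.47, 7.44 and 7.50 on knockout replicates 2, 4 and 5. All knockout arrays lay below all wild-type arrays, and the knockout arrays lay close together while the wild-type arrays were spread, with replicate 1 highest. Wild-type arrays averaged 8.36 ± 0.59 and knockout arrays 7.47 ± 0.03 (SD, n = 3 each), so the knockout level was 1.86-fold lower. Limma gave a log2 difference of -0.89 (SE 0.29, 95% interval -1.60 to -0.19) with an unadjusted p of 0.0217 and an adjusted p of 0.511, so Six3 did not pass. The exact permutation test gave p = 0.1 (two-sided), the smallest that 3 arrays against 3 can give. By size of difference Six3 was 255th of the 22565 probe sets, so 1.13% of them differed by more. In RNA of a whole tissue, fewer cells that express a gene and less of its RNA per cell cannot be told apart.

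The size of the Six3 difference rested in part on 1 array and on 1 probe set. Without wild-type replicate 1 it was -0.56 (limma unadjusted p = 0.00282, adjusted p = 0.748). Groups that do not overlap on all 6 arrays cannot come to overlap, or change direction, when arrays are left out. The other 2 probe sets of Six3, both designed on the mRNA record D83144, lay at or next to the floor on all 6 arrays, between 2.28 and 2.31, and the mean of all 3 probe sets differed by -0.30. The measurable probe set was designed on the expressed sequence tag AI509029, and its place within the Six3 locus was not looked up here. The RefSeq models of Six3 and of its noncoding neighbour Six3os1 overlap. Six3os1, measured by its own probe set, lay below every array's median: it read 3.12, 2.75 and 2.74 in the wild type and 2.53, 2.74 and 2.74 in the knockout. Its groups overlapped, and it too was highest on wild-type replicate 1. Six2, the next gene on the other side of Six3 and a paralogue, lay at the floor on all 6 arrays.

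**Figure D2:**
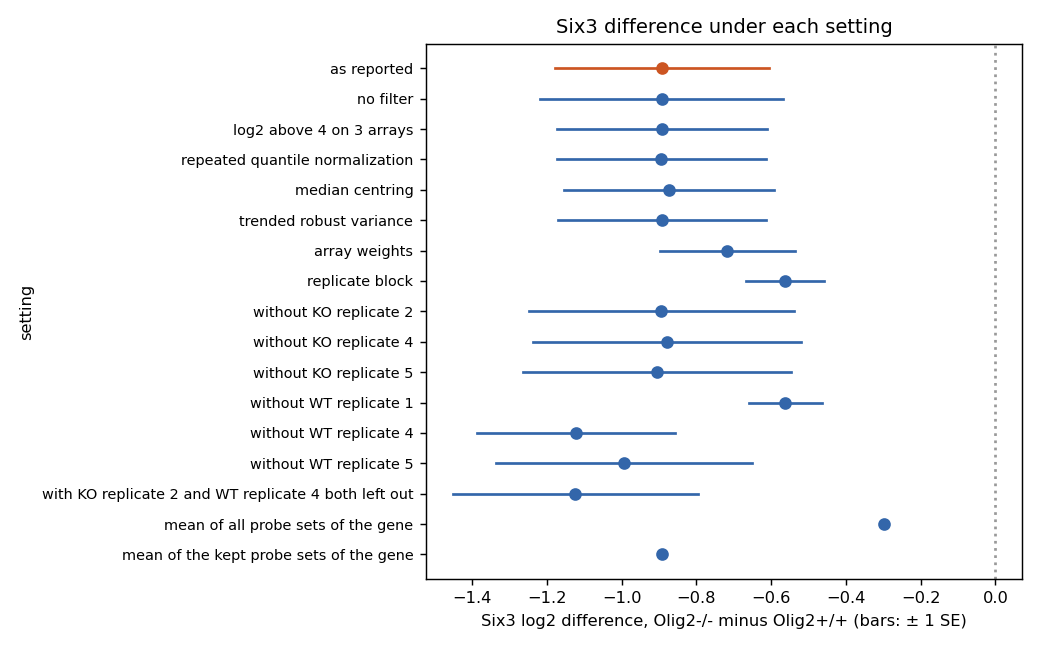
Log2 difference of Six3, Olig2-/- minus Olig2+/+ (horizontal axis, points; bars are 1 SE on each side where a model was fitted), as reported (orange) and under each of 16 alternative settings (blue). Every value lies below 0, from -1.12 to -0.30, and the value nearest 0 is the mean over the 3 Six3 probe sets, 2 of which lie at the floor. Settings that change only the filter or the variance model repeat the reported value, as does the mean over measurable probe sets. Leaving arrays out could not turn the sign, because the groups do not overlap when all arrays are used.

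Among the 10629 other genes above the filter, the 3 whose profile over the 6 arrays was nearest to that of Six3 were Polr2a, Sez6 and Asic1. Nearness was the root mean square distance between log2 values centred on each gene's mean. It was 0.117 for Polr2a, 0.124 for Sez6 and 0.126 for Asic1, against a median of 0.568 over all genes compared. A gene level on all 6 arrays would lie at 0.561 from Six3, close to that median. Polr2a encodes the largest subunit of RNA polymerase II, Sez6 a neuronal membrane protein and Asic1 an acid-sensing ion channel. Polr2a read 8.30, 7.06 and 7.48 on wild-type replicates 1, 4 and 5 and between 6.79 and 6.99 in the knockout. Sez6 read 9.17, 8.08 and 8.39 in the wild type and between 7.83 and 7.95 in the knockout. Asic1 read 7.68, 6.44 and 6.64 in the wild type and between 6.20 and 6.29 in the knockout. All 3, like Six3, were highest on wild-type replicate 1 and had knockout arrays close together, which follows from picking them by nearness to Six3.

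Six6, the paralogue of Six3 that acts in the retina, the hypothalamus and the pituitary, showed no separation of the genotypes. It read 4.15, 4.30 and 4.29 on wild-type replicates 1, 4 and 5 and 3.69, 4.64 and 4.55 on knockout replicates 2, 4 and 5. The knockout arrays lay on both sides of the wild-type arrays, with replicate 2 the lowest and the other two the highest of all 6. The log2 difference was 0.05 (95% interval -0.60 to 0.69, limma adjusted p = 0.952), so changes up to either bound are not excluded by these arrays. Without knockout replicate 2 it was 0.35, and every remaining knockout array then lay above every wild-type array, whereas it was -0.13 without knockout replicate 4 and -0.084 without knockout replicate 5. On knockout replicate 2 the 5 measurable genes of the hypothalamus list averaged -0.29 from their own means, against 0.16 and 0.02 on the other knockout arrays. That array also had the highest level of mesenchyme markers, and the part of either list in the Six6 values was not tested.

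Lhx2, a LIM homeodomain factor of the optic vesicle, the cortex and the thalamus, was nearly level between the genotypes. It read 9.43, 9.67 and 9.63 in the wild type (replicates 1, 4 and 5) and 9.56, 9.88 and 9.50 in the knockout (replicates 2, 4 and 5). The groups overlapped, and the log2 difference was 0.07 (95% interval -0.25 to 0.39, limma adjusted p = 0.822). Changes below -0.25 or above 0.39 lie outside that interval, and leaving out knockout replicate 4 gave -0.046, while leaving out wild-type replicate 1 gave -0.0036. Lhx9, its closest paralogue, averaged 9.10 ± 0.29 on wild-type arrays and 8.58 ± 0.29 on knockout arrays (SD, n = 3 each), a difference of -0.52 with overlapping groups (limma adjusted p = 0.511). Its 4 probe sets, all measurable, ranged from -0.91 to -0.44. Lhx9 is also a member of the thalamus list described below.

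Vax1, a homeodomain factor of the ventral forebrain and optic stalk, was measured by 2 probe sets that passed the filter. The brighter one (1457396_at) read 6.55, 6.59 and 6.53 in the wild type and 6.53, 6.87 and 6.55 in the knockout. The dimmer one (1421774_at) read 4.05, 4.36 and 4.21 in the wild type and 4.17, 4.79 and 4.45 in the knockout. On both probe sets knockout replicate 4 was the highest array, and the groups overlapped. The differences were 0.09 (95% interval -0.18 to 0.36, limma adjusted p = 0.715) and 0.26 (-0.17 to 0.70, 0.560), and without knockout replicate 4 that of the brighter probe set was -0.017. Vax2, the paralogue of Vax1, read 2.27, the floor, on all 6 arrays, as did both probe sets of its overlapping noncoding neighbour Vax2os.

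Foxd1 and Otx1 varied more within the wild type than within the knockout. Foxd1 read 5.81, 5.64 and 6.52 in the wild type and 6.15, 6.15 and 6.39 in the knockout, so the wild-type arrays spanned the knockout arrays. Its log2 difference was 0.24 (95% interval -0.35 to 0.83, limma adjusted p = 0.665). Leaving out wild-type replicate 4 gave 0.07 and leaving out replicate 1 of that genotype gave 0.15. Leaving out wild-type replicate 5 gave 0.51, and the groups then did not overlap (limma unadjusted p = 0.00955, adjusted p = 0.577). Otx1 read 5.03, 5.80 and 5.33 in the wild type and 5.03, 4.95 and 5.00 in the knockout. Wild-type replicates 4 and 5 lay above all knockout arrays, while wild-type replicate 1 equalled knockout replicate 2, the highest knockout array. The Otx1 difference was -0.39 (95% interval -0.88 to 0.09, limma adjusted p = 0.513), and it rested on single arrays. It was -0.19 without wild-type replicate 4 (limma adjusted p = 0.461), with overlap, and -0.57 without wild-type replicate 1 (limma unadjusted p = 0.0159, adjusted p = 0.748), without overlap. Without knockout replicate 2 it was -0.41, also without overlap. Its paralogue Otx2 differed by 0.17 in the other direction, from 8.09 ± 0.22 on wild-type arrays to 8.26 ± 0.19 on knockout arrays (SD, n = 3 each, limma adjusted p = 0.633).

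**Figure D3:**
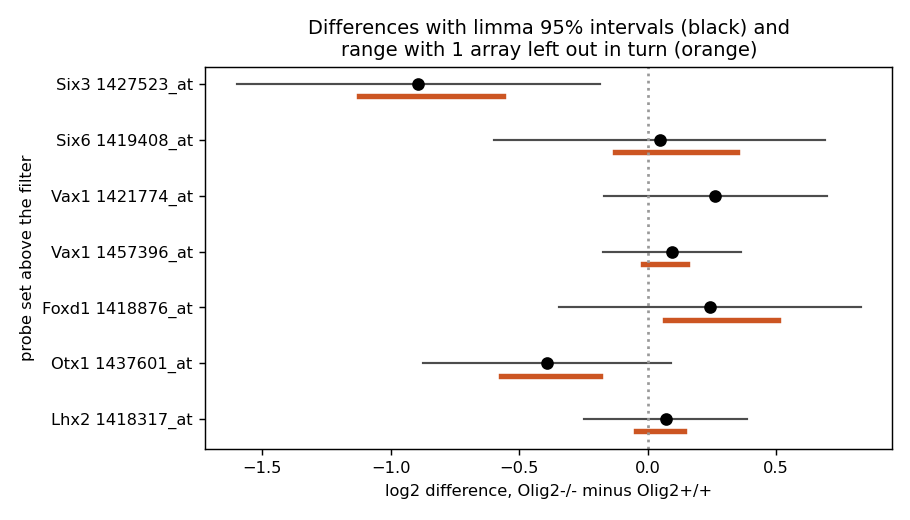
Log2 difference, Olig2-/- minus Olig2+/+ (horizontal axis), of the 7 probe sets above the filter, with limma's 95% interval in black and, for the probe set that stands for each gene, the range when each array is left out in turn in orange. The Six3 interval (-1.60 to -0.19) and the Six3 range (-1.12 to -0.56) lie below 0, and the intervals of the other 6 probe sets include 0. The Six3 range could not cross 0, because its groups do not overlap when all arrays are used.

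Rax and Hesx1 were not measurable with their single probe sets on these arrays. A single probe set near the floor does not show absent RNA, since Six3 had probe sets both at the floor and well above it. Rax, which specifies the eye field and later the hypothalamus, read 2.32 on 5 arrays and 2.35 on wild-type replicate 1. Hesx1 read 2.27 on 5 arrays and 2.38 on knockout replicate 5. No fold change is given for these genes or for Vax2, because near the floor the values carry no order.

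The measurable genes did not move together, and 4 of the 6 were higher and 2 lower in the knockout, with a median difference of 0.06 against -0.0015 over all 10630 genes, of which 50.6% were lower. That split rested on single arrays: without knockout replicate 4, 1 gene was higher and 5 lower, without wild-type replicate 1, 2 were higher and 4 lower, and without knockout replicate 5, 3 were higher and 3 lower. Knockout replicate 4 was the highest array for Six6, Vax1 and Lhx2, wild-type replicate 1 for Six3, wild-type replicate 4 for Otx1 and wild-type replicate 5 for Foxd1. The change of Six3 was set against that of each of the other 5 within arrays, a comparison chosen after the values were seen. The log2 ratio of Six3 to Foxd1 differed between the genotypes by -1.14, that to Vax1 by -0.99 and that to Lhx2 by -0.96, each without overlap (exact permutation p = 0.1, two-sided; 0.167 adjusted over the 5 comparisons). The ratio to Six6 differed by -0.94 (exact permutation p = 0.2, adjusted 0.25) and that to Otx1 by -0.50 (exact permutation p = 0.7, adjusted 0.7), both with overlap. None of the 5 passed, and 3 arrays against 3 cannot give less than 0.1.

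Genes that work beside these factors were counted from lists, and no member of any list passed the adjusted threshold in limma. Of 10 measurable eye field and optic vesicle partners, 7 were higher and 3 lower, with a median of 0.03. The groups did not overlap for 1 of them (10%, below the 16.4% of all genes), the secreted Wnt inhibitor Sfrp1, which averaged 7.15 ± 0.63 on wild-type arrays and 8.05 ± 0.26 on knockout arrays (SD, n = 3 each). All 5 of its probe sets were higher in the knockout, by 0.23 to 1.05, although the groups of the brightest overlapped after repeated quantile normalization. The eye factors Pax6 (0.02, and -0.11 to 0.54 over its 4 measurable probe sets) and Sox2 (-0.02) were nearly level at their brightest probe sets. Tbx5 and the retinoic acid enzyme Aldh1a1, which mark the dorsal retina, were at the floor on all 6 arrays.

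Of 11 measurable genes of anterior forebrain patterning, 6 were higher and 5 lower, with a median of 0.01, and groups did not overlap for 2 in each direction (36.4% of the list, against 16.4% of all genes). The zinc finger gene Zic5 differed by -0.52 and the Iroquois gene Irx3, which marks territory behind the Six3 domain, by -0.32, while Sp8 differed by 0.45 and the Hedgehog effector Gli3 by 0.18. The separation of Irx3 was narrow, since wild-type replicate 4 and knockout replicates 4 and 5 all read 3.41. With each array centred on its median, 2 higher genes and 1 lower gene did not overlap. The 3 probe sets of Zic5 ranged from -0.72 to -0.05 and those of Gli3 from 0.01 to 0.18. Wnt1 and Wnt8b, which Six3 is known to repress in the early embryo, were at the floor on all 6 arrays in both genotypes, as was Fgf8.

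Six3, Six6 and Hesx1 repress their targets through Groucho co-repressors (the Tle genes), and Lhx2 acts through Ldb and is held in check by Lmo proteins. Of 19 measurable co-repressors and cofactors, 7 were higher and 12 lower, with a median of -0.02, and groups did not overlap for 3 in each direction (31.6% of the list, against 16.4% of all genes). With each array centred on its median, 3 higher and 1 lower gene of this list did not overlap. Lmo1 differed by 0.46, Lmo2 by -0.41, the Eya family member Eya4 by 0.40 and the co-repressor Tle3 by -0.34. The other probe sets of Tle3 did not all go the same way, and its 4 ranged from -0.34 to 0.25. Ldb1 differed by -0.10 and the Six3 partner geminin (Gmnn) by 0.19, both with overlapping groups. Of 9 measurable paralogues, 5 were higher and 4 lower, and Lhx6 alone did not overlap (11.1% of the list, against 16.4% of all genes). Lhx6 differed by -0.33, while its second probe set differed by 0.02.

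**Figure D4:**
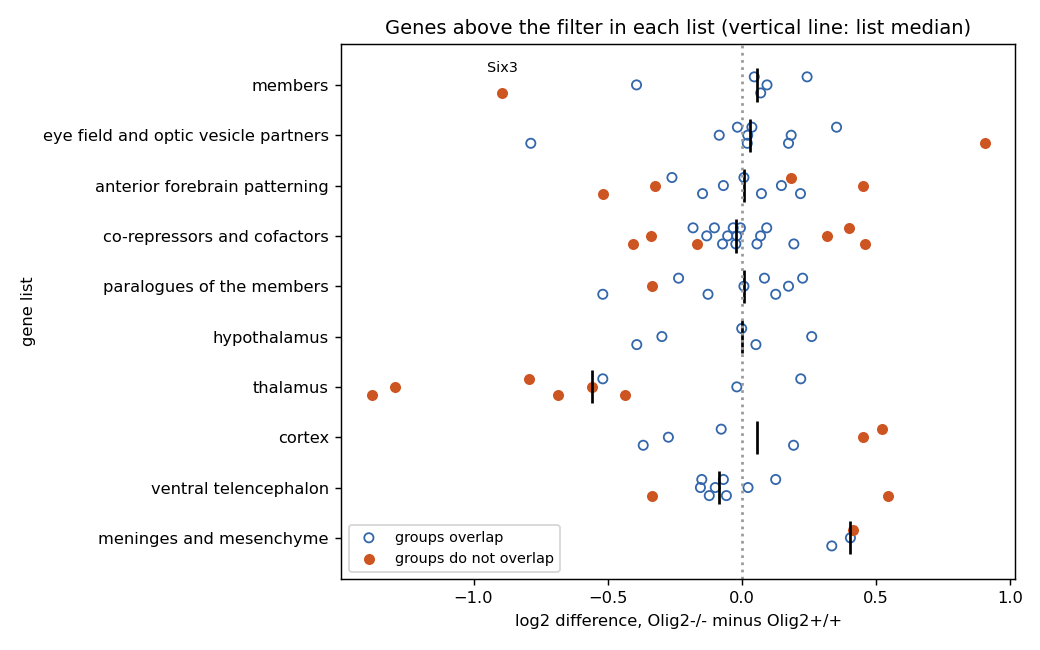
Log2 difference, Olig2-/- minus Olig2+/+ (horizontal axis), of each gene above the filter in 10 gene lists, with filled orange points for genes whose groups do not overlap, open blue points for the others, and a vertical line at each list's median. The 6 anterior forebrain and optic field factors (members) scatter around a median of 0.06 with Six3 at -0.89, whereas the thalamus list has a median of -0.56.

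Markers of neighbouring tissue were read on the same arrays. Of 11 ventral telencephalon markers on the array 10 were measurable, 3 higher and 7 lower in the knockout, and 5 higher and 5 lower without wild-type replicate 1. Among them Dlx1 read 11.28 ± 0.17 on wild-type and 11.16 ± 0.11 on knockout arrays, and Lhx8, of the medial ganglionic eminence, 10.06 ± 0.12 and 10.18 ± 0.07 (SD, n = 3 each), both with overlap. Groups did not overlap for Gsx2, a factor of ventral progenitors (0.54), and Lhx6, of interneurons from the medial ganglionic eminence (-0.33), which makes 20% of the list against 16.4% of all genes. The single probe set of Nkx2-1, another factor of that eminence and of the hypothalamus, did not pass the filter. Of 6 measurable cortex markers 3 were higher and 3 lower. Groups did not overlap for Tbr1 (0.45) and Neurod6 (0.52), both factors of cortical excitatory neurons and both higher in the knockout. That makes 33.3% of the list, against 16.4% of all genes. The log2 summed cortex level ran from 10.32 to 10.67 in the wild type and from 10.41 to 10.57 in the knockout, so the groups overlapped. Of 15 retina and lens markers on the array 12 were at the floor everywhere, among them Tyr, Dct, Nrl and Rpe65, as were 5 of 6 pituitary markers, among them Cga and Lhx3. Of the 13 hypothalamus markers 5 passed the filter and 3 (Hmx3, Nr5a1 and Foxb1) were at the floor. The log2 of the summed hypothalamus level ran from 9.45 to 9.82 in the wild type and from 9.41 to 9.71 in the knockout, so the groups overlapped. Of 9 thalamus markers, all measurable, 8 were lower in the knockout. Groups did not overlap for 6, all lower (66.7% of the list, against 16.4% of all genes). The largest of these differences were those of Gbx2 (-1.38), Rora (-1.29), Ntng1 (-0.79) and Tcf7l2 (-0.69). The log2 summed level of the list ran from 10.98 to 11.38 in the wild type and from 10.33 to 10.82 in the knockout, without overlap. This list was lower together with Six3, and its part in the Six3 difference was not tested. Wild-type replicate 1, where Six3 was highest, had the highest summed level of the 6 arrays for several lists, among them the thalamus (11.38), the ventral telencephalon (13.08, against at most 12.81 elsewhere) and anterior forebrain patterning (12.76). The summed levels of the cortex list (10.32) and of blood markers (14.02) were instead the lowest of the 6 arrays on wild-type replicate 1. By the mean of centred levels, which gives each gene equal weight, the thalamus list was as high on wild-type replicate 4 (0.399), where Six3 was lowest in the wild type, as on replicate 1 (0.392). By that mean the ventral telencephalon list was again highest on wild-type replicate 1 (0.129). The anterior forebrain patterning list was instead highest on knockout replicate 4 (0.097, against 0.036 on wild-type replicate 1). Whether any of these levels bears on Six3 was not tested. Of 14 meninges and mesenchyme markers 3 passed the filter and 3 (Foxc2, Twist2 and Foxd2) were at the floor. Among the measurable ones groups did not overlap for Pdgfrb alone (33.3%, against 16.4% of all genes). Its 2 probe sets differed by 0.41 and -0.15. The log2 summed level of the measurable markers was 8.99 on knockout replicate 2 against 7.60 and 7.69 on the other knockout arrays and 7.28 to 7.85 in the wild type. Foxd1 is also made in mesenchyme, and the part of this list in the Foxd1 values was not tested.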

How the data were processed

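The log2 expression values of each probe set were used as the authors deposited them. The series design text names GCOS and MAS5 for the images and GCRMA for quantile normalization and summary, and the submitters' processing notes list these tools without versions. GCRMA leaves a floor, within 0.03 of which 33.2% to 33.7% of values on each array lie, and differences near it are compressed. Exactly equal values on at least 2 arrays occurred for 13.9% of probe sets above the filter, Foxd1 and Otx1 among them.

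Genes were named from the platform annotation, and each was represented by its brightest probe set above the filter. Genotypes were compared with limma 3.58.1 in R 4.3.3 (lmFit, eBayes, two-sided, Benjamini-Hochberg over 22565 probe sets, threshold 0.05), checked on simulated data, with exact permutation tests for single values. There was no replicate block, as no label ties a number to a litter or day. Lists are described by counts and medians. Genes named from a list were those without overlap, up to 4 of largest difference, and for a factor differing by at least 0.5 the 3 genes of nearest profile. Genes named outside that rule (Ldb1, Gmnn, Pax6, Sox2, Otx2, Lhx9, Dlx1, Lhx8, Nkx2-1 and floor genes) were chosen after their values were seen. The factors and lists were chosen with earlier results of these data known. Of the 5 replicates per genotype that the design text mentions, 3 were analysed here.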

Additional observations from a re-analysis of the deposited data

How the results depend on the processing

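Six3, Otx1 and Foxd1 kept their direction under all 16 alternatives (filters, normalizations, variance models, array weights, arrays left out, other ways to combine probe sets), as did Olig2. For Six3 and Olig2, whose groups do not overlap on all 6 arrays, leaving out or weighting arrays could not turn the direction. Some of the settings could not change the estimate. A different filter or variance model alone returned the reported difference (Six3 -0.89, Otx1 -0.39, Foxd1 0.24). For Otx1 and Foxd1, each with a single probe set, the means over probe sets returned it too. Six3 ranged from -1.12 to -0.30, Otx1 from -0.59 to -0.19 and Foxd1 from 0.02 to 0.51, and no probe set passed the adjusted threshold under any of the 14 alternatives fitted. The sign turned for Lhx2 (-0.046 to 0.14 with 1 array left out in turn), Six6 (-0.13 to 0.35) and Vax1 (-0.017 to 0.15), whose differences are smaller than the spread between arrays; the cause was not tested. The count of probe sets at unadjusted p below 0.05 ranged from 1121 (without knockout replicate 5) to 3490 (without wild-type replicate 4), and was 3491 with array weights and 3276 with knockout replicate 2 and wild-type replicate 4 both left out. The count without overlap ranged from 5011 to 7830 with 1 array left out, and was 11032 with both left out, where fewer arrays make overlap rarer. With a replicate block the Six3 difference was -0.56, the Six6 difference 0.30 and the count of unadjusted calls 2014. Wild-type replicate 1 and knockout replicate 2 have no partner of the same number. The differences in that fit therefore rest on replicates 4 and 5 alone. Of the shared numbers, deviations correlated at -0.29 for replicate 4 and 0.32 for replicate 5, and no source says that the numbers pair the samples. With 3 pooled samples per genotype, only differences well above the spread between arrays can pass over all probe sets. In alternatives added after seeing the data, the median of the eye field partners ranged from -0.017 to 0.16 with 1 array left out, that of the anterior patterning genes from -0.069 to 0.063 and that of the cofactors from -0.079 to 0.032, so none of these 3 lists kept a direction, whereas the thalamus median stayed between -0.67 and -0.49.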
